A study of Mus musculus with 15 samples.

Results

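The 77 genes described here encode mitochondrial ribosomal proteins and were taken from a gene count table of mouse inguinal fat by symbol, Mrpl or Mrps followed by a digit. All 77 genes with such a symbol, of 24015 in the table, also met the minimum of 1 CPM (counts scaled to a common library total) in at least 3 libraries, and each of them reached it in all 15 libraries. Of the members, 48 carry an Mrpl and 29 an Mrps symbol. RNA sequencing of polyA RNA was done on inguinal adipose tissue, a depot under the skin known for forming beige, heat-producing fat cells, of C57BL/6 mice. Mice of 2 months (Young) or 12 months (Old) had spent 2 weeks at thermoneutrality, where little heat production is needed, and were then given vehicle (Ctrl) or CL for 5 days by intraperitoneal injection. The labels spell CL out as cardiolipin, a mitochondrial phospholipid; the same letters commonly stand for a β-adrenergic agonist, and since the sources do not settle which was injected, the name is left as CL. The groups were Young_Ctrl, Young_CL and Old_CL with n = 4 libraries each, and Old_Ctrl with n = 3, its replicate 2 being not analysed here. No label states that the libraries of a group are different animals, and p-values therefore describe the spread between these libraries, which may be technical.

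Mitochondrial ribosomes translate the few proteins encoded by mitochondrial DNA, which are core subunits of the respiratory chain and ATP synthase. Their RNAs come from mitochondrial DNA, but all of their proteins are encoded in the nucleus, made in the cytosol and imported. Some of these proteins have counterparts in bacterial ribosomes (here called bacterial-type), and others exist only in mitochondria (mitochondria-specific). Brown and beige adipocytes are rich in mitochondria, so the proteins that build this ribosome are part of the machinery that such cells need. Subunits are assigned here by symbol; structures of the mammalian particle place the products of Mrps18a and Mrps30 in the large subunit. Mrps36 was classed apart, because its product is known as a component of the 2-oxoglutarate dehydrogenase complex of the citric acid cycle. Transcripts of mitochondrial DNA itself were not analysed here.

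Total counts ran from 6115542 to 51577001 per library, and the median count of a member in a library was 617. The lowest was 16, for Mrpl23 in Young_CL replicate 3. Levels are given as CPM scaled by the trimmed mean of M-values (TMM), differences as log2 changes with their SE, and a gene was called at a Benjamini-Hochberg adjusted p under 0.05 in the quasi-likelihood F test of edgeR over the 15288 genes tested. All 10 adipocyte markers (among them Adipoq, Plin1 and Lipe) were detected in every library, with a summed level of 17120 to 49220 CPM. Markers of other cells moved with the groups. The 14 B cell and lymph node markers summed to between 1923 and 3039 CPM in Young_Ctrl, 1028 and 1434 in Young_CL, 697 and 1422 in Old_Ctrl and 489 and 661 in Old_CL, and none of them was at 0 in any library. The 16 skeletal muscle markers reached 2662 CPM or more in 5 libraries (Young_CL replicates 1, 2 and 3, Old_Ctrl replicate 3 and Old_CL replicate 3) and stayed at 433 or less in the others. Stromal progenitor markers were lower in Old_CL (2454 to 2575 CPM) than in Old_Ctrl (5115 to 11840 CPM), and macrophage markers were at 1404 to 1994 CPM against 2477 to 4682. In bulk tissue, a change in the share of a cell type and a change in RNA per cell cannot be told apart.

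CL raised the transcripts of nearly the whole mitochondrial ribosome in young mice. Of the 77 members, 74 rose, none was called lower, the median log2 change was 0.95 (1.93-fold), and 31 changed by a log2 value of at least 1. Over all genes tested, 21.7% were called higher and 22.1% lower, and the median log2 change was -0.07. For 73 members every Young_CL library lay above every Young_Ctrl library, a separation seen in 18.0% of all genes upward and in 16.1% downward. Together the members made up 0.265 to 0.300% of all counts in Young_Ctrl and 0.417 to 0.451% in Young_CL. The log2 changes ran from 0.09 to 1.93 with an SD of 0.33 between members, wider than the median SE of 0.12 of a single change.

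Mrpl12 encodes the stalk protein of the large subunit, which also binds the mitochondrial RNA polymerase. It stood at 79.1, 62.2, 55.3 and 55.5 CPM in the Young_Ctrl libraries and at 259.8, 256.8, 221.2 and 220.9 CPM in Young_CL. The groups did not overlap, and the log2 change of 1.93 ± 0.13 (SE; adjusted p = 4.64e-08) was the largest of the 77. Mrpl34, a small bacterial-type protein of the large subunit, rose from 29.5, 23.6, 22.1 and 21.4 CPM to 85.8, 85.3, 69.3 and 79.7 CPM. Its lowest CL library was above the highest vehicle library, at a log2 change of 1.74 ± 0.12 (adjusted p = 5.55e-08). Mrpl27, another bacterial-type large subunit protein, went from 32.2, 26.5, 22.6 and 22.2 CPM to 77.3, 73.3, 61.0 and 54.9 CPM, again with no overlap. Its log2 change was 1.38 ± 0.14 (adjusted p = 2.28e-06). Its span overlaps Eme1, a DNA repair endonuclease subunit, which rose by a log2 change of 0.65 in the same comparison (adjusted p = 0.00126). Whether the counting used strand is not given in the sources used here.

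Mrps36, the component of the 2-oxoglutarate dehydrogenase complex, had the second-largest change of the symbol family. Its levels were 8.42, 4.90, 4.21 and 4.79 CPM in Young_Ctrl and 20.1, 18.1, 17.4 and 20.1 CPM in Young_CL, a log2 change of 1.80 ± 0.18 (adjusted p = 2.01e-06). Replicate 1 was the highest vehicle library for Mrps36, as it was for Mrpl12, Mrpl34 and Mrpl27.

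**Figure D1:**
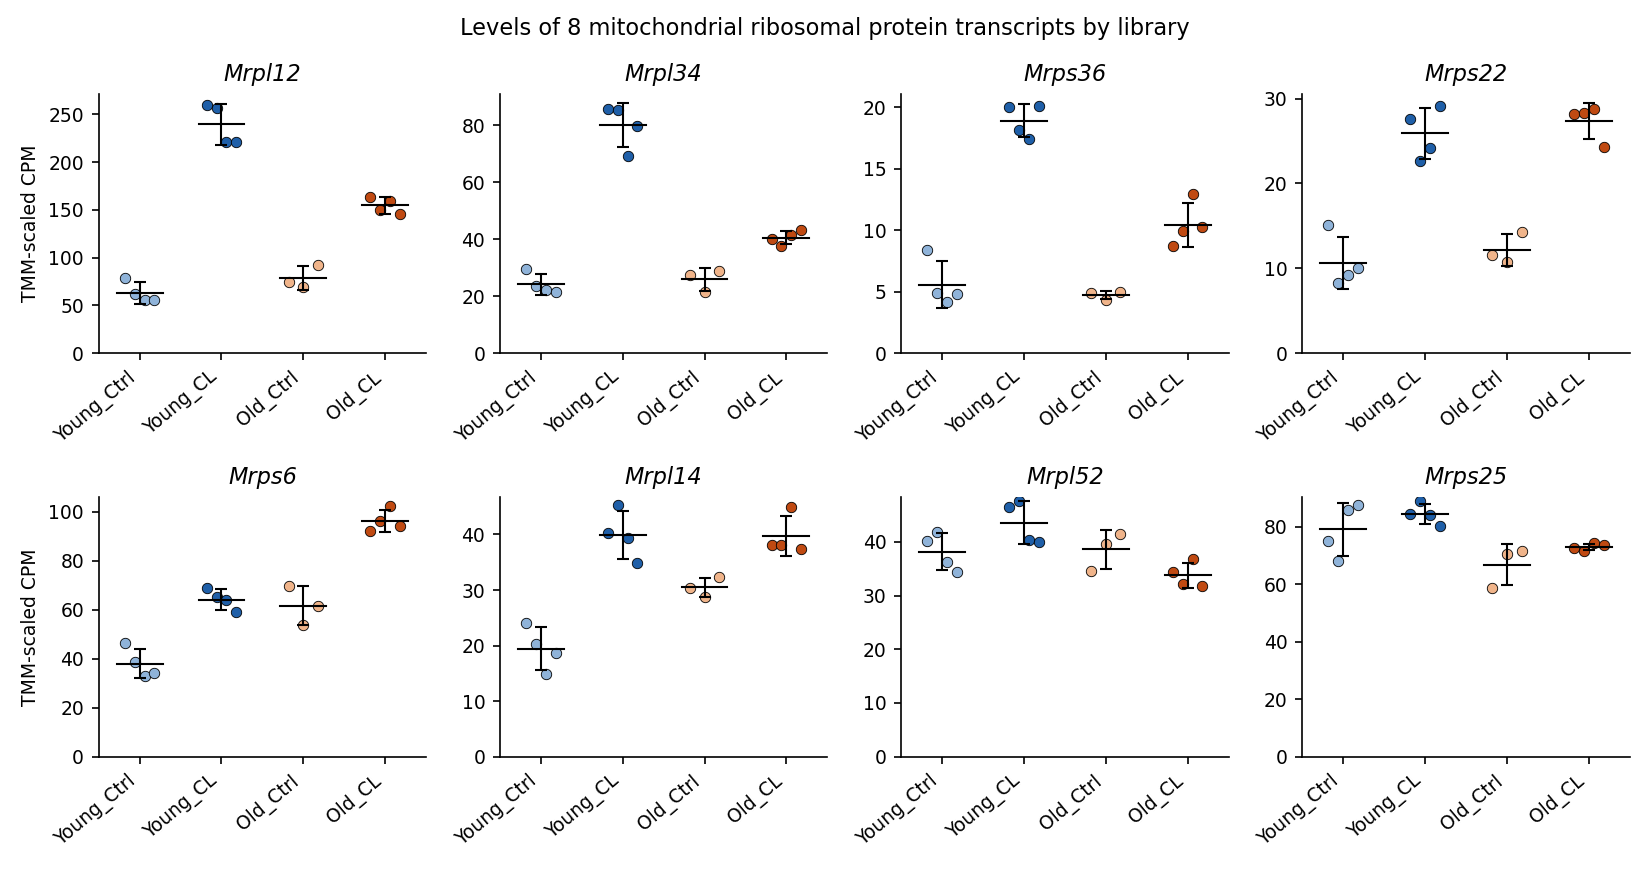
TMM-scaled CPM (vertical axes, from 0) in each library of the 4 groups (horizontal axes) for Mrpl12, Mrpl34, Mrps36, Mrps22, Mrps6, Mrpl14, Mrpl52 and Mrps25; points are libraries, lines are group means and bars are SD. Mrpl12 reached 221 CPM or more in every Young_CL library and at most 164 CPM in Old_CL, Mrps6 was highest in Old_CL, and the groups of Mrpl52 overlapped in both CL comparisons.

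The 3 members not called in young mice were Mrps25, Mrpl52 and Mrpl23. Mrps25, a mitochondria-specific protein of the small subunit, stood at 74.9, 68.0, 85.8 and 87.5 CPM under vehicle and at 84.4, 88.8, 84.2 and 80.1 CPM under CL, with a log2 change of 0.09 (95% interval -0.10 to 0.29). The libraries of the groups were interleaved. The span of Mrps25 overlaps Nr2c2, which had a log2 change of -0.43 (adjusted p = 0.0102), and reads of these genes may not be separable. Mrpl52, a mitochondria-specific large subunit protein, was at 40.1, 41.9, 36.3 and 34.5 CPM and then at 46.4, 47.5, 40.3 and 39.9 CPM, with a log2 change of 0.20 (95% interval -2.9e-05 to 0.39; adjusted p = 0.097). Its groups overlapped too. Mrpl23, the lowest member, was at 3.68, 2.58, 3.21 and 3.23 CPM against 3.90, 3.87, 2.65 and 3.96 CPM, and its interval of -0.13 to 0.55 was the widest of the 3. Mrpl24, a bacterial-type large subunit protein, had the smallest change among those called, from 81.8, 75.1, 78.5 and 84.0 CPM to 96.3, 93.6, 92.5 and 95.4 CPM. The 4 CL libraries all lay above the vehicle libraries, by a log2 change of 0.24 ± 0.07 (adjusted p = 0.0127). Mrpl40, a mitochondria-specific large subunit protein, was called (0.45, adjusted p = 0.0162) although its groups overlapped, 32.8, 20.7, 21.5 and 21.8 CPM against 35.6, 31.5, 31.8 and 32.2 CPM, and its adjusted p reached 0.0527 with a library left out.

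Both subunits rose in young mice. Of the large subunit genes 46 of 48 rose, with a median log2 change of 0.94, and of the small subunit genes 27 of 28 rose, with a median of 0.96. By origin, 45 of 46 bacterial-type and 28 of 30 mitochondria-specific genes rose, with medians of 0.93 and 0.98. The mean log2 CPM of the large subunit exceeded that of the small subunit by 0.05 to 0.10 in Young_Ctrl and by 0.06 to 0.11 in Young_CL, ranges that overlapped. The excess was -0.00189 to 0.0496 in Old_Ctrl and 0.00637 to 0.030 in Old_CL, and every Old_CL value lay below every Young_CL value. The difference between the subunits was not tested.

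In aged mice CL also raised most members, by less. Of the 77, 67 rose and 0 were called lower (median log2 change 0.61, or 1.53-fold), where 23.1% of all genes were called higher and 22.2% lower and the median of all genes was -0.01. The libraries of the groups did not overlap for 71 members, all upward, against 27.9% of all genes upward and 25.0% downward. The members made up 0.261 to 0.272% of counts in Old_Ctrl and 0.327 to 0.356% in Old_CL. The 67 that rose in aged mice had all risen in young mice. Medians were 0.61 for the large and 0.59 for the small subunit, and 0.56 for bacterial-type and 0.67 for mitochondria-specific genes.

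Mrps22, another small subunit protein without a bacterial counterpart, rose from 11.5, 10.8 and 14.3 CPM in Old_Ctrl to 28.2, 28.3, 28.8 and 24.2 CPM in Old_CL. The lowest CL library was well above the highest vehicle library, and the log2 change of 1.16 ± 0.17 (adjusted p = 0.00012) was close to the 1.30 ± 0.16 of young mice. Mrps36 rose from 4.90, 4.34 and 4.96 CPM to 8.70, 9.97, 13.0 and 10.2 CPM, by a log2 change of 1.16 ± 0.20. Mrpl12 went from 74.1, 69.3 and 92.6 CPM to 163.9, 149.6, 159.2 and 145.6 CPM, by 0.97 ± 0.14. For both genes the groups were separate, and the CL libraries stayed below every Young_CL library. Mrpl39, a mitochondria-specific large subunit protein, rose from 22.2, 23.4 and 27.8 CPM to 44.0, 45.3, 54.9 and 47.9 CPM, by 0.97 ± 0.13, beside 1.03 ± 0.12 in young mice.

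The 10 members not called in aged mice were the 3 of the young comparison and Mrps18a, Mrps12, Mrpl57, Mrpl19, Mrpl33, Mrpl24 and Mrpl36. Mrps12, the decoding-site protein of the small subunit, stood at 31.6, 30.8 and 36.4 CPM and then at 41.2, 41.8, 43.5 and 37.2 CPM, with a log2 change of 0.31 and an adjusted p of 0.0832. Mrps18a was at 42.9, 37.0 and 46.9 CPM and then at 52.3, 49.0, 57.5 and 51.3 CPM, with a log2 change of 0.32 (adjusted p = 0.102). The groups of these genes, and of Mrps25 and Mrpl19, did not overlap although the test missed the threshold. Mrpl19 had a log2 change of 0.22 (adjusted p = 0.0933), and Mrps25 of 0.12 (adjusted p = 0.32). The span of Mrps18a overlaps Rsph9, which fell (-1.13, adjusted p = 0.00388). Those of Mrpl19 and Mrps25 overlap Gcfc2 (-0.08, adjusted p = 0.717) and Nr2c2 (-0.04, adjusted p = 0.847). Reads of these genes may not be separable.

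Mrpl36, a small bacterial-type protein, was at 29.1, 28.2 and 32.7 CPM under vehicle and at 31.9, 32.7, 32.1 and 29.7 CPM under CL, and Mrpl33 at 30.6, 33.6 and 41.8 CPM and then at 38.2, 37.0, 40.9 and 38.3 CPM. Their groups overlapped, with log2 changes of 0.07 (95% interval -0.12 to 0.27) and 0.12 (-0.15 to 0.39). Mrpl24 was at 73.1, 80.8 and 82.1 CPM and then at 78.1, 85.6, 87.7 and 82.0 CPM, and Mrpl23 at 3.75, 3.5 and 3.54 CPM and then at 4.21, 3.51, 3.70 and 3.84 CPM. Mrpl52 was the only member with a negative change, from 34.6, 39.7 and 41.5 CPM to 34.3, 32.2, 36.8 and 31.7 CPM (log2 -0.20, 95% interval -0.41 to 0.01; adjusted p = 0.114), and its groups overlapped.

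**Figure D2:**
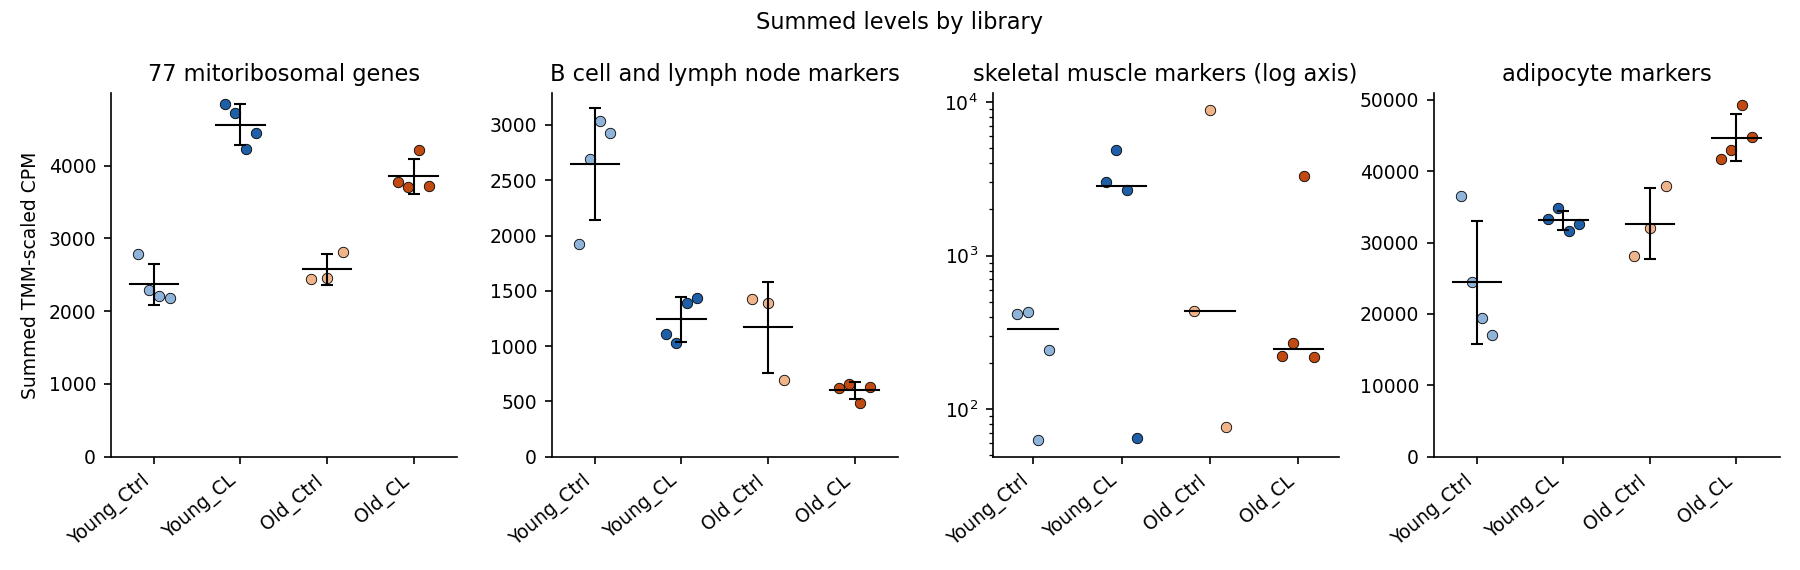
Summed TMM-scaled CPM by library (points) in each group for the 77 mitoribosomal genes and for the B cell and lymph node, skeletal muscle and adipocyte marker lists; lines and bars are means and SD, except for muscle, where the axis is logarithmic and the line is the median. The mitoribosomal sum was 2181 to 2788 CPM in Young_Ctrl, 4227 to 4851 in Young_CL, 2443 to 2817 in Old_Ctrl and 3705 to 4207 in Old_CL, while the B cell and lymph node sum was lower in every CL library than in any vehicle library of the same age.

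The lists of other cells moved beside these results. With CL, 14 of 14 B cell and lymph node markers and 10 of 10 T cell markers fell in young mice, and 10 and 10 fell in aged mice, where 9 of 10 stromal progenitor markers and 7 of 10 macrophage markers fell as well. Of the 10 adipocyte markers, 7 rose in young and 8 in aged mice. Their median log2 changes were 0.80 and 1.13, beside 0.95 and 0.61 for the members. In Young_Ctrl they summed to 36510 CPM in replicate 1 and to 17120 to 24540 CPM in the others. The part of the adipocyte list in the CL results was not tested. When the mean level of the B cell list entered the fit as a covariate, 62 members were called in young mice, all higher, where 7.99% of all genes were higher and 2.89% lower, and the median log2 change of the members was 0.69. In aged mice 36 members were then higher and 1 lower, beside 12.8% and 13.2% of all genes, and their median was 0.37 in place of 0.61. The fit without the 5 libraries rich in muscle transcripts left replicate 4 as the only Young_CL library and replicates 1 and 4 in Old_Ctrl, so only its medians are given. The median log2 change of the members was then 0.90 in young and 0.51 in aged mice, beside -0.10 and 0.01 over all genes. The remaining Young_CL library had the lowest stromal progenitor (1899 CPM) and macrophage (837 CPM) sums of its group.

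Other parts of the mitochondrial translation machinery were measured too. All 6 mitoribosome proteins that carry other names rose in young mice and 4 in aged mice. Ptcd3, a small subunit protein of the pentatricopeptide type, had the largest changes of these, 1.12 ± 0.10 in young mice (31.0 to 37.0 CPM in Young_Ctrl and 66.2 to 88.5 CPM in Young_CL) and 1.02 ± 0.11 in aged mice. Dap3, a GTP-binding small subunit protein, rose by 0.64 and 0.58. In aged mice Gadd45gip1 (0.20, adjusted p = 0.126) and Chchd1 (0.19, adjusted p = 0.189) were not called.

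Of the 13 translation factors, 11 rose at each age, with medians of 0.65 and 0.61. Gfm1, the elongation factor that moves the ribosome along, rose by 1.70 ± 0.11 in young mice (29.7 to 40.3 CPM in Young_Ctrl, 97.7 to 125.0 CPM in Young_CL) and by 1.33 ± 0.12 in aged mice, and no group overlapped its control. Tufm, the factor that delivers charged tRNAs, rose by 1.14 and 0.98. Of the 17 mitochondrial tRNA synthetases, 14 rose in young and 12 in aged mice, with medians of 0.53 and 0.59. Among them Fars2, which charges phenylalanine tRNA, rose by 1.32 and 1.08, and Iars2, for isoleucine, by 0.97 and 1.14.

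Of the 25 factors that assemble the mitoribosome or modify its RNA, 14 rose and 0 fell in young mice, and 13 rose and 2 fell in aged mice. Noa1, a GTPase needed for the small subunit, rose by 0.57 ± 0.08 and 0.83 ± 0.09. Eral1, an RNA chaperone of the small subunit RNA, rose by 0.63 at both ages. The 2 that fell in aged mice were Mettl17 (-0.35 ± 0.12, adjusted p = 0.0247) and the gene listed as Mterfd2, which encodes a targeting factor for an RNA methyltransferase (-0.34 ± 0.13, adjusted p = 0.0418). Of 12 genes for transcription, RNA stability and replication of mitochondrial DNA, 6 rose at each age. Lrpprc, which stabilises mitochondrial mRNAs, rose by 0.96 and 0.72, whereas Tfam, which packages mitochondrial DNA, had changes of 0.21 (adjusted p = 0.104) and -0.02 (adjusted p = 0.919).

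Of 9 regulators of mitochondrial biogenesis, 4 rose and 3 fell in young mice, and 3 rose and 4 fell in aged mice. The coactivator Ppargc1a rose by 1.30 ± 0.23 (5.29 to 11.4 CPM in Young_Ctrl, 14.3 to 27.6 CPM in Young_CL) and by 1.24 ± 0.26 in aged mice, and the orphan nuclear receptor Esrra by 1.21 ± 0.11 and 0.63 ± 0.12. Gabpa, the DNA-binding part of nuclear respiratory factor 2, rose by 0.45 in young mice and was not called in aged mice (0.21, adjusted p = 0.0809). Those that fell in both comparisons were Myc (-0.56 and -0.69), the coactivator Pprc1 (-0.48 and -0.54) and Gabpb1 (-0.31 and -0.34), the partner of Gabpa. In aged mice the transcription factor Nrf1 fell as well (-0.30, adjusted p = 0.0249).

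Of the 36 complex I genes, 36 rose in young mice with a median log2 change of 1.70, and 34 rose in aged mice with a median of 0.98. Of the 77 cytosolic ribosomal protein genes, 52 fell in young mice (median -0.36), and 77 fell in aged mice with a median of -0.63. The medians of the mitochondrial and of the cytosolic ribosome had opposite signs in both comparisons. The difference between the lists was not tested.

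**Figure D3:**
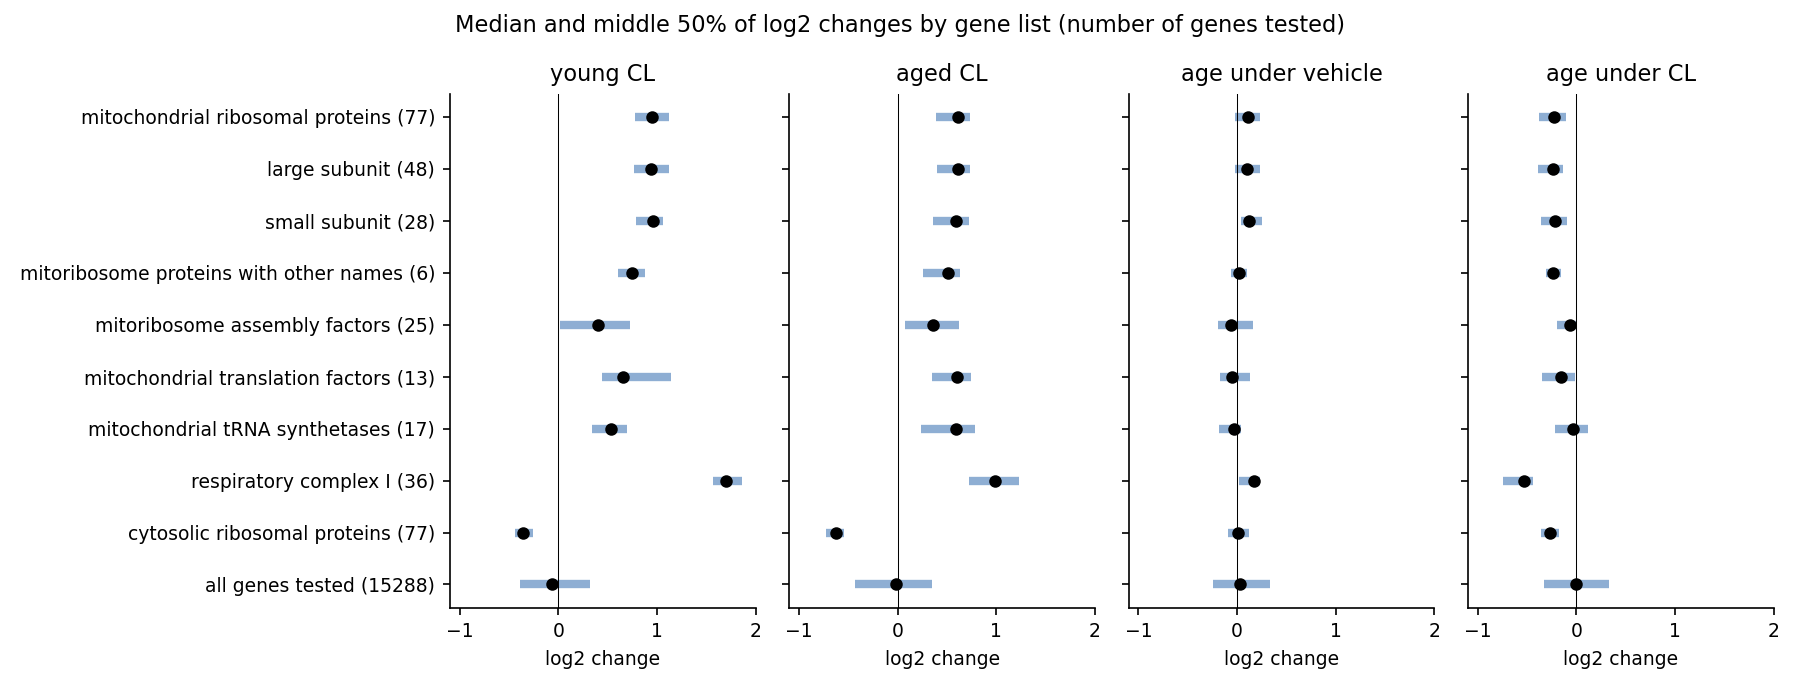
Log2 changes of gene lists in the 4 pairwise comparisons (horizontal axes); dots are medians over the genes of a list, bars span the middle 50% of its genes, and the number tested is in parentheses. In both CL panels complex I lies furthest to the right (medians 1.70 and 0.98), the mitochondrial ribosomal proteins lie at 0.95 and 0.61, and the cytosolic ribosomal proteins lie left of 0.

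Proximal promoters were compared for short sequences known to be bound by regulators of nuclear genes for mitochondrial proteins, because the members moved together. RefSeq promoters of assembly GRCm38.p6, spanning 250 bases before to 50 bases after the start, matched 68 of the 77 members. The nuclear respiratory factor 1 letters GCATGCGC were found on either strand in 8 members (11.8%), against 5.46% of the 11255 tested genes with a promoter. The GABP letters CCGGAAGT were found in 12 members (17.6%) against 7.95%, and the YY1 letters AAGATGGC in 12 members (17.6%) against 4.71%. Of the 32 complex I genes with a promoter, 9.38% held the nuclear respiratory factor 1 letters, 3.12% the GABP letters and 21.9% the YY1 letters. The estrogen-related receptor letters TCAAGGTCA were in 0 members and 0.302% of tested genes, and the cAMP response element TGACGTCA was in 2 members (2.94%) and 3.31%. In young mice the median log2 change was 0.85 in members with the nuclear respiratory factor 1 letters and 0.98 in those without, 0.79 and 0.98 for GABP, and 0.97 and 0.96 for YY1. In aged mice the medians with and without the letters were 0.67 and 0.59, 0.47 and 0.63, and 0.66 and 0.58, so that for nuclear respiratory factor 1 the order of the medians was the other way round. A match is a description of letters and not a binding site.

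The stretches of 150 bases before the start of Mrpl32, Mrpl9 and Mrpl39 are shown for the nuclear respiratory factor 1 letters (in capitals; GCGCATGC is the other strand, and overlapping matches form one run). Those of Mrpl27, Mrpl51 and Mrps22 are shown for the GABP letters.
Mrpl32, chr13:14613038-14613187, minus strand: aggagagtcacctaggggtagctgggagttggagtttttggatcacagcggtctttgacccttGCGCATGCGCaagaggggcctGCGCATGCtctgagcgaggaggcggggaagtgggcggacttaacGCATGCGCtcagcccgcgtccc
Mrpl9, chr3:94443186-94443335, plus strand: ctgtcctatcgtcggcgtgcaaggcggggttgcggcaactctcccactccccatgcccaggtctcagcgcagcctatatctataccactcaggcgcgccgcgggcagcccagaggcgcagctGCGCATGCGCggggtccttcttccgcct
Mrpl39, chr16:84735245-84735394, minus strand: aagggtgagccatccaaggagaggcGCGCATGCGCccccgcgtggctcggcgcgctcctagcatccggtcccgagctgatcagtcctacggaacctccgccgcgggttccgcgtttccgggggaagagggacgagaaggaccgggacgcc
Mrpl27, chr11:94653641-94653790, plus strand: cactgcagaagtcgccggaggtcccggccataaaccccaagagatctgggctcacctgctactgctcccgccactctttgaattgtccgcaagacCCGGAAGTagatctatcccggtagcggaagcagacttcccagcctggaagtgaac
Mrpl51, chr6:125192050-125192199, plus strand: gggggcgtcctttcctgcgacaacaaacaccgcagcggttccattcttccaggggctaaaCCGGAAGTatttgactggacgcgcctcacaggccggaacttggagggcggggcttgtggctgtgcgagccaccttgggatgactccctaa
Mrps22, chr9:98601680-98601829, minus strand: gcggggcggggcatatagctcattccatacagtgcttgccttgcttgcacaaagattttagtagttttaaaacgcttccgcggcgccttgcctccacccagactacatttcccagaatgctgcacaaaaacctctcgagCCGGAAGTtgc
Mrpl32, whose product is a bacterial-type large subunit protein processed by a mitochondrial protease, holds 4 matches and rose by 0.72 ± 0.12 in young and 0.69 ± 0.13 in aged mice. Mrpl9 and Mrpl39 hold 2 overlapping matches each.

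The YY1 letters lay just after the start in several members. These letters contain ATG, the letters of a start codon, and whether the matches lie at translation starts was not tested. Stretches of 28 bases are shown for 3 of these members, with the match in capitals.
Mrpl42, chr10:95501905-95501932, minus strand: agattgaagcAAGATGGCgagcgcgcgg
Mrps7, chr11:115604148-115604175, plus strand: gacagcggccAAGATGGCtgcccccgcg
Mrps27, chr13:99344790-99344817, plus strand: ggtgcgctccAAGATGGCggctcccatg
Mrpl42 rose by 1.30 in young and 0.71 in aged mice, Mrps7 by 1.16 and 0.81, and Mrps27 by 1.22 and 0.73. The span of Mrps27 overlaps the long noncoding RNA 6430562O15Rik, which rose by 1.08 (adjusted p = 4.06e-05) and 0.44 (adjusted p = 0.0297), and reads of these genes may not be separable. For comparison, the 150 bases before the start of Mrpl12 and Mrpl34, which had the largest changes among ribosomal members in young mice, hold none of the 5 sequences searched.
Mrpl12, chr11:120484487-120484636, plus strand: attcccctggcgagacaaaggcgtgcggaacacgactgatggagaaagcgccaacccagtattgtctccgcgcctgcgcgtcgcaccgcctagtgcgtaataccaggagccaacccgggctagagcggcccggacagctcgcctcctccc
Mrpl34, chr8:71464776-71464925, plus strand: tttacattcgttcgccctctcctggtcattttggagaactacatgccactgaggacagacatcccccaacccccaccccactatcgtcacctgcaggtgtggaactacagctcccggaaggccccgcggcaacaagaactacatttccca

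The change with CL differed between the ages for 16 members, and in all 16 it was smaller at 12 months. This test, the interaction, subtracts the young CL change from the aged one; over all genes 3.31% had a higher and 3.77% a lower aged change. Over the 77 members the median difference was -0.35, against -0.02 over all genes, and 72 members had the larger log2 change in young mice. All 16 had risen in young mice, and 13 of them rose in aged mice as well. The exceptions were Mrpl57, Mrpl36 and Mrpl33. The members were 12 of the large and 4 of the small subunit.

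Mrpl34 had the largest difference. Its Old_Ctrl libraries were at 27.5, 21.4 and 28.9 CPM and its Old_CL libraries at 40, 37.6, 41.4 and 43.3 CPM, a log2 change of 0.65 ± 0.13 beside 1.74 in young mice, and the difference was -1.09 ± 0.17 (adjusted p = 0.00326). All Old_CL libraries lay below all Young_CL libraries, while the vehicle groups overlapped. Mrpl57, a mitochondria-specific large subunit protein, went from 23.0, 18.9, 19.5 and 21.2 CPM to 43.8, 44.9, 46.6 and 40.2 CPM in young mice, and from 24.4, 22.4 and 27.8 CPM to 28.1, 28.2, 33.6 and 27.1 CPM in aged mice. The young groups were far apart and the aged groups overlapped, with a difference of -0.85 ± 0.14 (adjusted p = 0.00421). The span of Mrpl57 overlaps Ska3, which had a difference of -0.83 that was not called (adjusted p = 0.202). Between Young_CL and Old_CL, Ska3 changed by -0.91 (adjusted p = 0.0103), and reads of these genes may not be separable.

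Mrps16, a bacterial-type small subunit protein, rose from 32.4, 29.6, 30.3 and 27.9 CPM to 67.4, 67.9, 52.9 and 56.3 CPM in young mice. In aged mice it went from 33.9, 33.7 and 35.4 CPM to 38.9, 40.3, 45.5 and 40.4 CPM, and the difference was -0.76 ± 0.13 (adjusted p = 0.00525). The aged groups did not overlap, although the step between them was small. Mrpl12 had a difference of -0.96 ± 0.18 (adjusted p = 0.00782). Mrpl55, a mitochondria-specific large subunit protein, rose from 17.1, 15, 11.6 and 12.4 CPM to 36.6, 37.5, 35.3 and 33.8 CPM in young mice and from 19.2, 19.0 and 20.1 CPM to 28.5, 28.5, 30.7 and 26.9 CPM in aged mice. Its difference of -0.81 ± 0.15 (adjusted p = 0.00839) came with a higher level in every Old_Ctrl library than in any Young_Ctrl library and a lower level in every Old_CL library than in any Young_CL library.

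Mrpl30, a bacterial-type large subunit protein, rose from 48, 37.3, 44.9 and 43.3 CPM to 113.1, 107.3, 92.6 and 99.1 CPM in young mice and from 45.4, 49.9 and 55.8 CPM to 67.6, 70.4, 81.2 and 67.7 CPM in aged mice. The difference was -0.74 ± 0.15 (adjusted p = 0.0102), and no Old_CL library reached the lowest Young_CL library. Mrpl36 was at 30.0, 27.3, 26.6 and 28.2 CPM in Young_Ctrl and 48.2, 46.1, 39.8 and 39.5 CPM in Young_CL, where the change was 0.64 and the difference to aged mice -0.57 ± 0.12 (adjusted p = 0.0158). Mrps35, a mitochondria-specific small subunit protein, went from 29.1, 22.7, 22.7 and 25.1 CPM to 59.2, 61.8, 53.9 and 57.5 CPM in young mice and from 25.1, 26.7 and 27.5 CPM to 40.2, 39.8, 46.2 and 42.4 CPM in aged mice, with a difference of -0.56 ± 0.13 (adjusted p = 0.0188). For this gene the vehicle groups overlapped and the CL groups did not.

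The other 8 members with an age difference were Mrpl51, Mrps14, Mrpl9, Mrpl53, Mrpl33, Mrpl14, Mrps23 and Mrpl27, with differences between -0.71 and -0.48. Eme1, which overlaps Mrpl27, had a difference of -0.83 (adjusted p = 0.0202), larger than the -0.71 of Mrpl27, whose value is uncertain for that reason. At the other end, Mrpl49, Mrpl40, Mrps5 and Mrpl3 had slightly larger changes in aged mice and were not called. The number of members called depended on single libraries. It was 33 without Young_Ctrl replicate 1, where 3.87% of all genes were called higher and 6.43% lower. Without Old_Ctrl replicate 4 it was 6, where 1.43% were higher and 1.36% lower. It was 8 without any one of Young_CL replicates 1 and 2 and Old_CL replicates 1, 2 and 4. In those fits 1.68 to 1.83% of all genes were higher and 1.76 to 1.86% lower. With the Old_CL replicates 1, 2 and 4 summed to 1 sample, 2 members were called. The median difference of the members was -0.31 in that fit, beside -0.35 with all libraries, and over all genes 0.487% were called higher and 0.415% lower. Without the 5 muscle-rich libraries, which left only replicate 4 of Young_CL, the median difference of the members was -0.38, beside 0.04 over all genes. The summed libraries differed by 2.65 to 4.90 times the counting noise (chi-square over degrees of freedom), less than any other pair of one group, of which the closest stood at 5.91. Of complex I, 21 of 36 genes had a smaller change at 12 months and 0 a larger one, with a median difference of -0.71. Among the cytosolic ribosomal proteins 1 of 77 was called, but 75 of 77 differences were negative, with a median of -0.27. That list fell with CL at both ages, so for it a negative difference is a larger fall.

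**Figure D4:**
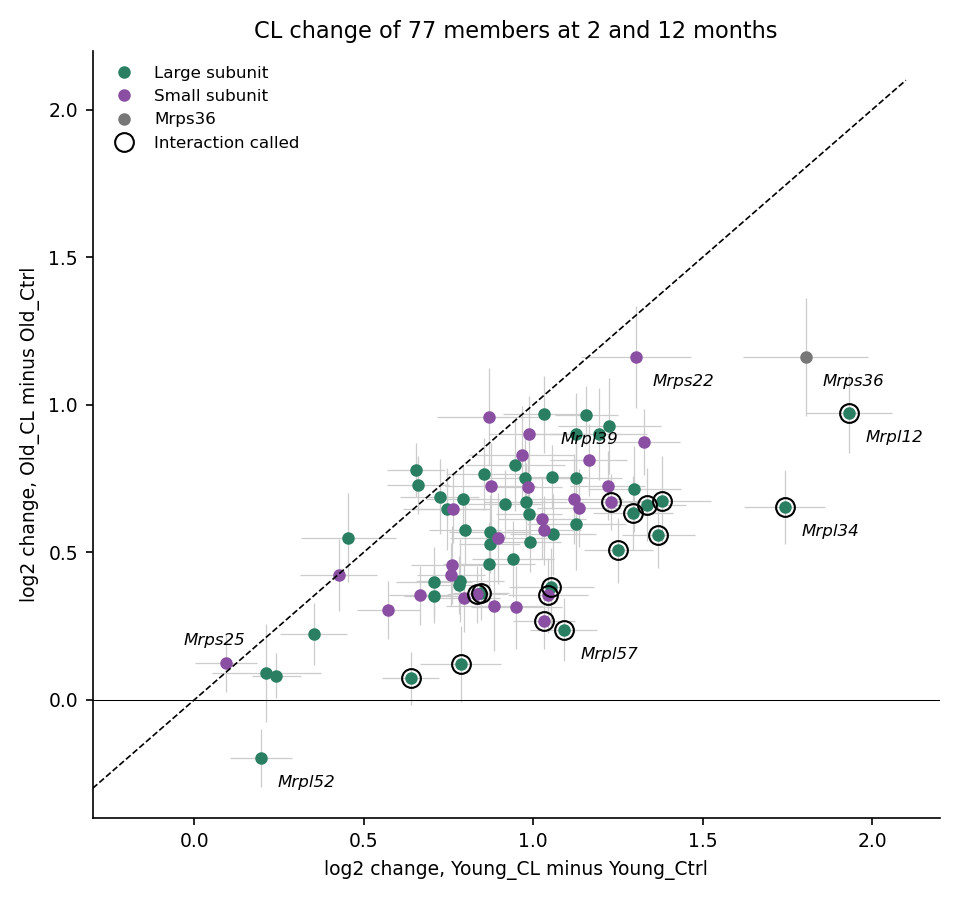
Log2 change with CL of each of the 77 genes in mice of 2 months (horizontal axis) and 12 months (vertical axis), with SE bars; the dashed line marks equal change and rings mark the 16 genes called in the interaction. Most points, 72 of 77, lie below the line, and Mrpl12, Mrpl34 and Mrps36 lie furthest to the right.

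Without CL, few members were called between the ages. In simulated data 31% of 1.5-fold changes were called in this comparison, for genes drawn from all those tested and not from the members. Under vehicle 5 members were higher at 12 months and 0 lower, with a median log2 change of 0.11. Over all genes 15.1% were called higher and 12.2% lower. Groups did not overlap for 7 members, all upward, against 14.0% of all genes upward and 13.1% downward. The share of members called was below that of all genes. As a share of unscaled counts the members had a mean of 0.276% in Young_Ctrl and 0.266% in Old_Ctrl, so the sign of this small shift depends on the scaling. Mrps6, a bacterial-type protein of the small subunit, was at 46.3, 38.6, 33.0 and 34.1 CPM in Young_Ctrl and at 69.6, 53.7 and 61.6 CPM in Old_Ctrl, a log2 change of 0.70 ± 0.12 (adjusted p = 0.00117), with no overlap. Its span overlaps Slc5a3, an inositol transporter, which rose by 0.71 in the same comparison (adjusted p = 0.00205); reads of the 2 genes may not be separable, and the value of Mrps6 is uncertain for that reason.

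Mrpl14, a bacterial-type large subunit protein, was at 24.1, 20.2, 14.8 and 18.6 CPM in Young_Ctrl and at 30.4, 28.8 and 32.3 CPM in Old_Ctrl, a log2 change of 0.66 ± 0.13 (adjusted p = 0.00335). Every aged library lay above every young one. The overlapping gene Tmem63b, a membrane ion channel, had a change of 0.26 (adjusted p = 0.157). Mrpl55 rose by 0.49 ± 0.12 (adjusted p = 0.00761), Mrps28, whose groups overlapped, by 0.36 ± 0.12 (adjusted p = 0.0346) and Mrpl11 by 0.32 ± 0.09 (adjusted p = 0.0211). Mrps18a, at 43.3, 32.5, 27.9 and 23.9 CPM in Young_Ctrl and at 42.9, 37.0 and 46.9 CPM in Old_Ctrl, was not called (0.42, adjusted p = 0.0559), and its groups overlapped. The lowest values, none called, were those of Mrpl47, Mrps25, Mrpl32 and Mrps36, with log2 changes of -0.33, -0.24, -0.21 and -0.21.

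Mrpl47 stood at 12.8, 8.85, 10.5 and 10.9 CPM in Young_Ctrl and at 7.35, 8.96 and 8.95 CPM in Old_Ctrl, which overlapped. Mrpl32 stood at 25.9, 21.7, 20.5 and 23.7 CPM and at 19.0, 17.1 and 23.2 CPM, with overlap as well. Mrps25 was at 58.5, 70.4 and 71.6 CPM in Old_Ctrl, of which the last 2 lay within the Young_Ctrl range. The overlapping gene Nr2c2 was lower at 12 months (-0.43, adjusted p = 0.027). The number called was 22 without Young_Ctrl replicate 1, all higher, where 21.8% of all genes were called higher and 16.4% lower. It was 9 without Young_Ctrl replicate 2 (7 higher and 2 lower), where the shares were 14.1% and 12.5%. Without any one of Young_Ctrl replicates 3 and 4 and Old_Ctrl replicate 4 it was 3, all higher. In those fits 9.12%, 9.83% and 7.04% of all genes were higher and 6.86%, 7.19% and 4.24% lower. With the B cell list as a covariate it was 0, where 0.137% of all genes were called higher and 0.072% lower. Under vehicle 13 of 14 B cell and lymph node markers were lower at 12 months and 7 of 10 macrophage markers higher, and their part in the result was not tested beyond that covariate.

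Under CL the comparison of the ages went the other way. Of the 77 members, 31 were lower at 12 months and 1, Mrps6, was higher, with a median log2 change of -0.23, where 20.5% of all genes were called higher and 19.4% lower. Old_CL lay wholly below Young_CL for 32 members and above it for 1, against 21.4% and 23.5% of all genes. The lower level was not particular to the members. Of the cytosolic ribosomal proteins 29 of 77 were lower and 0 higher (median -0.27), and of complex I 29 of 36 were lower and 0 higher (median -0.53). Of the 31 lower members 21 belong to the large and 9 to the small subunit, and the remaining one is Mrps36. With Old_CL replicates 1, 2 and 4 summed to 1 sample, 19 members were lower and 1 higher, beside 11.6% and 13.2% of all genes, and the median was -0.19. The comparison shares Young_CL with the young CL comparison and Old_CL with the aged one.

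Mrpl34 was lowest relative to young mice, with a log2 change of -0.98 ± 0.11 (adjusted p = 1.75e-05). Mrps36 followed with -0.85 ± 0.17 (adjusted p = 0.00135). Mrpl47, a bacterial-type large subunit protein, was at 20.7, 18.1, 16.4 and 18.3 CPM in Young_CL and at 12.3, 10.6, 12.5 and 9.62 CPM in Old_CL, a change of -0.71 ± 0.13 (adjusted p = 0.000600). Mrpl15, of the same class, was at 70.1, 68.6, 62.3 and 59.2 CPM and at 41.6, 39.2, 46.4 and 39.1 CPM, a change of -0.65 ± 0.09 (adjusted p = 8.79e-05). In all 4 genes the groups were separate, and their changes with age under vehicle were not called.

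Mrps6 was at 68.9, 65.0, 63.8 and 58.9 CPM in Young_CL and at 92.1, 96.2, 102.5 and 94.1 CPM in Old_CL, with a log2 change of 0.58 ± 0.11 (adjusted p = 0.000663), and Slc5a3 rose by 1.21 in the same comparison (adjusted p = 5.49e-06). Mrps6 was higher at 12 months in both treatments, and its interaction of -0.12 was not called. Mrpl40 (0.14), Mrps34 (0.13) and Mrps5 (0.11) had the next highest values and were not called. Mrpl40 was at 35.6, 31.5, 31.8 and 32.2 CPM and at 33.0, 34.6, 42.8 and 34.1 CPM. Mrps34, of the small subunit, was at 76.0, 76.1, 73.1 and 71.4 CPM and at 84.0, 80, 88.1 and 73.6 CPM, and Mrps5 at 38.2, 34.2, 39.4 and 53.3 CPM and at 42.1, 43.9, 48.4 and 43.6 CPM. The groups of all 3 overlapped. Without the 5 muscle-rich libraries, which left only replicate 4 of Young_CL, the median of the members was -0.32, beside -0.01 over all genes. With the B cell list as a covariate 51 members were called, all lower, with a median of -0.61, where 6.96% of all genes were lower and 6.49% higher. Between Young_CL and Old_CL, 14 of 14 B cell and lymph node markers and 10 of 10 T cell markers were lower at 12 months, and 6 of 10 adipocyte markers (median 0.82) and 4 of 4 erythrocyte markers were higher; the part of the T cell, adipocyte and erythrocyte lists in the result was not tested.

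The interaction varied with transcript length, taken as the median length of the protein-coding transcripts of a gene in the GENCODE vM21 annotation. Among the 36 members with a median under 1000 bases the median interaction was -0.42, and among the 41 longer ones it was -0.31. Over all 13706 tested genes with a length the medians were -0.16 for short and 0.00 for longer genes. Spearman's rho between length and interaction was 0.27 across the 77 members and 0.19 across all genes; genes share libraries and are not independent replicates. All 5 members that were higher at 12 months under vehicle were shorter than 1000 bases. The part of length in these differences was not tested.

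**Figure D5:**
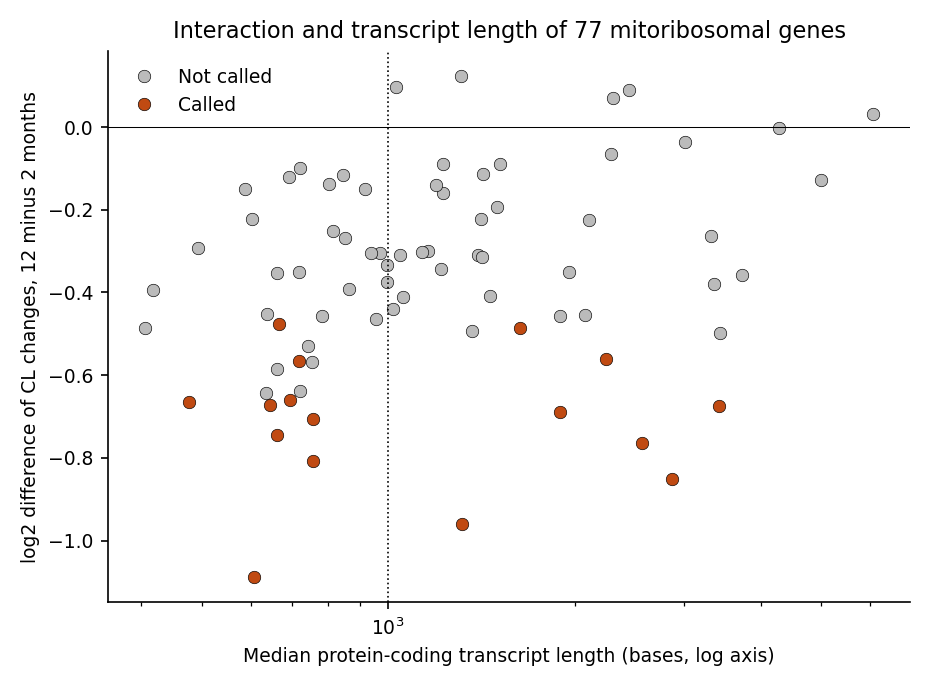
Difference between the CL changes at 12 and 2 months (vertical axis, log2) against the median length of protein-coding transcripts (horizontal axis, bases, logarithmic) for the 77 genes, with genes called in the interaction in colour and a dotted line at 1000 bases. Of the 16 called genes, 9 lie left of the line and 7 right of it.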

How the data were processed

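RNA was extracted with Trizol and a column kit and libraries were made with the TruSeq kit, per the labels' protocols. Reads were processed with STAR, Subread and featureCounts against mm9, per the submitters' processing notes, and versions, strand setting and annotation are not given in the sources used here. The values are integer read counts per gene as deposited by the authors, in 1 table of 15 libraries. Genes kept by filterByExpr (15288) were fitted with edgeR 4.0.16 in R 4.3.3, with TMM scaling, robust quasi-likelihood dispersion and 1 mean per group, and p-values were adjusted over all of them. Levels are CPM per TMM-scaled library, and log2 CPM has a prior count of 2. TMM factors were 1.076 to 1.215 in Young_Ctrl, 0.930 to 0.987 in Young_CL, 0.966 to 1.082 in Old_Ctrl and 0.846 to 0.892 in Old_CL. Rises with CL are therefore larger in scaled levels than in shares of counts. SE was derived from F (log2 change over root F), and 95% intervals use the t distribution with the degrees of freedom of that test.

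The members, gene lists, marker lists and alternatives were chosen with earlier results of these data known. Values are given library by library for the 4 largest and 4 smallest changes in each pairwise comparison and the 8 smallest p-values of the interaction; members called against the majority, or not called where most were, are named with values. Up to 4 genes with the smallest p are named from each related list. Mrpl42, Mrps7, Mrps27, Tfam, Eral1, Gadd45gip1 and Chchd1 were named after their values were seen. Alternatives were RLE and upper-quartile scaling, limma-voom 3.58.1, DESeq2 1.42.0, other filters, fits of only the 2 groups compared, a block for the replicate number, each library left out, Old_CL replicates 1, 2 and 4 summed, 5 muscle-rich libraries left out, and a muscle or B cell score as covariate. Over the pairwise comparisons, deviations of same-numbered libraries had correlations from -0.236 to 0.343. In aged CL these were 0.043, 0.332 and 0.204, and those of the other pairs ran from -0.292 to 0.19. The numbers were not taken as pairs, and pairing in aged CL is not excluded. The procedure was tested on simulated data, with 100 genes changed by each of 2 sizes. In the pairwise comparisons 27 to 40% of the 1.5-fold and 69 to 76% of the 2-fold changes were called. For the interaction 3% and 41% were called. The changed genes were drawn at random from all genes kept, and the others were left unchanged. For age under vehicle the median SE was 0.127 for the members and 0.161 for all genes, so these percentages are not those of the members. A member not called may still have changed. Overlaps and promoters were taken from RefSeq tables of another assembly than mm9. Members whose RefSeq span overlaps another tested gene number 19.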

Additional observations from a re-analysis of the deposited data

Results flagged for a closer look

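In groups of 4 libraries, single libraries stood apart from the other 3 in 14 of 231 combinations of member and group. This was judged on log2 CPM by the gap to the nearest library over the group's range, against Dixon's 95% critical value. Chance alone marks about 1 in 20 groups. Of the 14, 6 were high values in Young_Ctrl replicate 1: Mrpl20 at 67.1 CPM (others 40.2 to 43.1), Mrpl40 at 32.8 CPM (others 20.7 to 21.8), Mrpl46 at 20.8 CPM (others 17.5 to 17.7), Mrps15 at 60.9 CPM (others 40.6 to 41.8), Mrps21 at 33.8 CPM (others 25.4 to 26.5), Mrps31 at 22.6 CPM (others 15.2 to 15.6). Old_CL replicate 3 was high for Mrpl10 (116 CPM), Mrpl14 (45 CPM), Mrps28 (44.3 CPM), and Old_CL replicate 4 low for Mrpl53 (41.9 CPM) and Mrps22 (24.2 CPM). The remaining cases were Mrpl13 in Young_Ctrl replicate 2 (25.2 CPM, lowest), Mrpl23 in Young_CL replicate 3 (2.65 CPM, lowest), Mrpl40 in Young_CL replicate 1 (35.6 CPM, highest). The cause was not tested.

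The change with CL differed between 2 and 12 months for 16 members by the interaction term of edgeR, all with the smaller change at 12 months, beside 3.31% of all genes with a larger and 3.77% with a smaller one. The number was 6 to 33 with 1 library left out, beside 1.43 to 5.91% of all genes with a larger change and 1.36 to 7.57% with a smaller one. It was 2 with Old_CL replicates 1, 2 and 4 summed, beside 0.487% and 0.415%. The log2 differences were Mrpl34 -1.09, Mrpl12 -0.96, Mrpl57 -0.85, Mrpl55 -0.81, Mrps16 -0.76, Mrpl30 -0.74, Mrpl27 -0.71, Mrps14 -0.69, Mrpl51 -0.67, Mrpl14 -0.67, Mrpl33 -0.67, Mrpl53 -0.66, Mrpl36 -0.57, Mrps35 -0.56, Mrpl9 -0.49, Mrps23 -0.48.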

How the results depend on the processing

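Of the counts of members called, that in young mice stayed between 62 and 74 and that of aged mice between 37 and 69 over the alternatives run; the 37 (36 higher, 1 lower) came with the B cell score as a covariate. For age under vehicle (5), limma-voom gave 10, where 16.3% of all genes were called higher and 13.1% lower. The 2 groups fitted alone gave 2 (7.96% and 4.67%) and the B cell covariate 0 (0.137% and 0.072%). For age under CL (32), summing Old_CL replicates 1, 2 and 4 gave 20, leaving out the 5 muscle-rich libraries 13 and the B cell covariate 51. For the interaction (16), DESeq2 gave 25, where 5.72% of all genes were called higher and 7.01% lower. The muscle covariate gave 9 (2.22% and 2.49%) and the summed libraries 2 (0.487% and 0.415%). Counts of the fit without the 5 muscle-rich libraries are not given, because it left 1 Young_CL library. Leaving out 1 library at a time gave 73 to 74 in young CL, 59 to 68 in aged CL and 3 to 22 for age under vehicle. For age under CL it gave 25 to 38, and for the interaction 6 to 33. In that order 18.4 to 24.5%, 18.6 to 24.9%, 7.04 to 21.8%, 16.6 to 22.4% and 1.43 to 5.91% of all genes were higher. The shares lower were 16.9 to 25.1%, 17.5 to 23.3%, 4.24 to 16.4%, 15.3 to 21.4% and 1.36 to 7.57%.

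The replicate block, for numbers that the check did not show to be pairs, gave 74, 65, 6, 30 and 11 members called in the same order. Of these 74, 65, 4, 30 and 10 had been called without it. Over all genes 20.9, 20.8, 13.4, 19.1 and 1.93% were then higher and 19.6, 19.3, 10.2, 17.5 and 2.26% lower. With upper-quartile scaling, which moved the median of all genes in young CL from -0.07 to -0.15, the share of all calls that were higher went from 49.6 to 38.7% in young CL and from 51.0 to 41.5% in aged CL, where 61 members were then higher and 1 lower. With the B cell covariate the median member change under vehicle with age turned to -0.25, Mrpl11 to -0.029 and Mrps28 to -0.10, and for age under CL Mrpl54 went to -0.52; the cause was not tested. That covariate differs between the groups, so its effect and theirs cannot be told apart. The lowest depth limits Mrpl23, at 16 counts in 1 library.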

Other observations

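Spread between libraries differed by group. The coefficient of variation of the 77 members had a median of 14.9% in Young_Ctrl, 8.13% in Young_CL, 10.2% in Old_Ctrl and 7.72% in Old_CL. Erythrocyte markers summed to 407 to 528 CPM in Old_CL, above the 157 to 228 CPM of Young_Ctrl and the 159 to 242 CPM of Young_CL, with 190 to 438 CPM in Old_Ctrl.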
